A study of Mus musculus with 9 samples.

Results

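This report covers 34 mouse genes of DNA replication and nucleotide synthesis, chosen by name: the MCM helicase, the factors that license and fire origins, the sliding clamp and its loader, the single-strand binding protein, the replicative polymerases and primase, the enzymes that join and untangle new strands, and the enzymes that make deoxynucleotides. A gene was kept where every array of 1 or more groups detected its probe (detection p below 0.05). All 34 had a probe on the array and 32 were kept, out of 10024 genes kept in all. The others, Pola1 (the catalytic subunit of DNA polymerase alpha) and Prim1 (the primase subunit that makes RNA primers), were detected on none of the 9 arrays.

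RNA from 9 samples of mice on a C57BL/6J background, all of which carry an enhanced yellow fluorescent protein (YFP) reporter at the Rosa26 locus that Cre recombinase switches on, was read on Illumina bead arrays. The first group, eCSC, is 3 samples of endogenous cardiac stem cells, isolated as c-kit positive and CD45 negative and collected at passage 4 of culture. The second, YfpCM, is 3 samples of YFP-positive cardiomyocytes, sorted by flow cytometry from the left ventricular apex of mice recombined with a c-kit/cre lentivirus, 28 days after they had been given 1 subcutaneous dose of isoproterenol (200 mg/kg), which stimulates beta-adrenergic receptors and at high doses damages the heart. The third, CMa, is 3 samples of normal adult cardiomyocytes from mice of the same strain. The sample titles call the YFP-positive myocytes derived in vitro, which goes against the sorting in the design text, and every sample, the other groups included, carries the isoproterenol protocol. The reporter marks cells in which Cre has acted and is not itself specific to a cell type. No age is stated, nor whether replicates were taken from different animals or cultures, so that p-values reflect only how much these samples vary, possibly for technical reasons.

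Before a cell copies its DNA, the MCM proteins are loaded as rings around each origin by CDC6 and CDT1, and are then turned into an active helicase by MCM10, the GINS complex and cyclin E kinase. RPA coats the single strands, the RFC complex loads the PCNA clamp, the polymerases copy both strands, and FEN1 and LIG1 trim and seal the short lagging-strand pieces. Ribonucleotide reductase, thymidylate synthase, thymidine kinase and dUTPase keep up the supply of deoxynucleotides. Many of these genes are switched on together by E2F transcription factors as a cell enters S phase, and adult mammalian cardiomyocytes, which rarely divide, express most of them at low levels.

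Levels are given as normalized log2 signal, in the order of replicates 1, 2 and 3, and differences as log2 differences between group means. Adjusted p-values come from limma over all 10024 genes, and a gene was called where its adjusted p was under 0.05. In bulk samples such as these, fewer cells of a type and less RNA per cell cannot be told apart. Between 15326 and 19048 of 45281 probes were detected on an array, and the small number of arrays limits the precision.

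The labels were set against marker genes. Kit, which encodes c-kit, was not detected on any eCSC array (4.17, 4.24 and 4.23), although the cells are labelled as c-kit positive. It was at 8.68, 7.40 and 8.66 on the YFP-positive arrays and undetected on the adult arrays. Of 10 cardiomyocyte markers, 8 were undetected on all eCSC arrays, and their summed signal was 477 to 593 there, 169290 to 175299 in YFP-positive cells and 161704 to 172228 in adult cells.

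Markers of other cardiac cells were also higher in the YFP-positive samples than in adult cardiomyocytes, where 22.8% of all genes were called higher. This held for 9 of 10 endothelial markers (Kdr was lower), 9 of 9 fibroblast markers, 7 of 9 leukocyte markers, 6 of 6 mast cell markers, 4 of 4 erythroid markers and 2 of 8 smooth muscle and pericyte markers (2 were lower). The summed leukocyte signal was 8325, 2360 and 4426 on the YFP-positive arrays, 838 to 1233 in adult cells and 469 to 765 in eCSCs, and every leukocyte marker tested was detected on at least 1 array of both heart-derived groups. The summed fibroblast signal was 11750 to 15974 in YFP-positive cells, 3261 to 4586 in adult cells and 1009 to 1260 in eCSCs, with Col3a1 undetected in adult cells. Endothelial markers summed to 13993 to 14355, 4091 to 5552 and 465 to 504 in the same order of groups. Mast cell markers summed to 1717 to 2628, 168 to 203 and 149 to 177, with Cpa3, Mcpt4, Tpsb2 and Kit undetected in adult cells. Erythroid markers summed to 24477 to 30989, 838 to 1725 and 84.7 to 94.8, with Hbb-b2 and Slc4a1 undetected in adult cells. All 4 erythroid markers were undetected on every eCSC array. Hbb-b2 and Slc4a1, like Kit, were therefore kept only through the YFP-positive arrays, where they were high. The marker counts above are for that reason descriptions. These markers moved with the replication genes between YFP-positive and adult samples, and their part in the results was not tested.

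All 32 genes were detected on all 3 eCSC arrays, 29 on all YFP-positive arrays and 15 on all adult arrays. The number detected on a single array was 32 in each eCSC sample, 31, 29 and 32 in the YFP-positive samples, and 21, 19 and 17 in the adult samples. Because Ccne1, Pcna and Rfc3 were kept only through the eCSC arrays, where they were high, their own differences from eCSCs and the counts against eCSCs below are descriptions. YFP-positive cells had 31 of the 32 at lower levels than eCSCs, where 38.6% of all genes were called lower, and adult cells had 32 of 32 lower, where 39.4% were. The median log2 difference was -1.81 for YFP-positive cells (all genes -0.10) and -2.81 for adult cells (all genes -0.05). Those comparisons share the eCSC arrays. Between the heart-derived groups, 20 of the 32 were higher in YFP-positive than in adult cells, none was lower and 12 were not called, where 22.8% of all genes were called higher and 27.7% lower. The median there was 0.90, against -0.08 over all genes. With median scaling in place of quantile normalization, the calls over all genes moved from 2284 higher and 2779 lower to 2254 higher and 829 lower, and 22 of the 32 were then called higher (the median of all genes moved to 0.16 and that of the 32 to 1.11).

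Among the 15 genes detected on all 9 arrays, 15 were lower in YFP-positive cells than in eCSCs (40.9% of all such genes), 15 were lower in adult cells (40.4%), and 8 were higher in YFP-positive than in adult cells (19.2%). The groups did not overlap for 30 genes between YFP-positive cells and eCSCs (40.2% of all genes did not overlap in that direction), and for 31 between adult cells and eCSCs (40.5%). Between YFP-positive and adult cells, 25 genes were higher without overlap (26.1% of all genes), Rpa1 was lower without overlap (32.7%), and 6 overlapped.

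**Figure D1:**
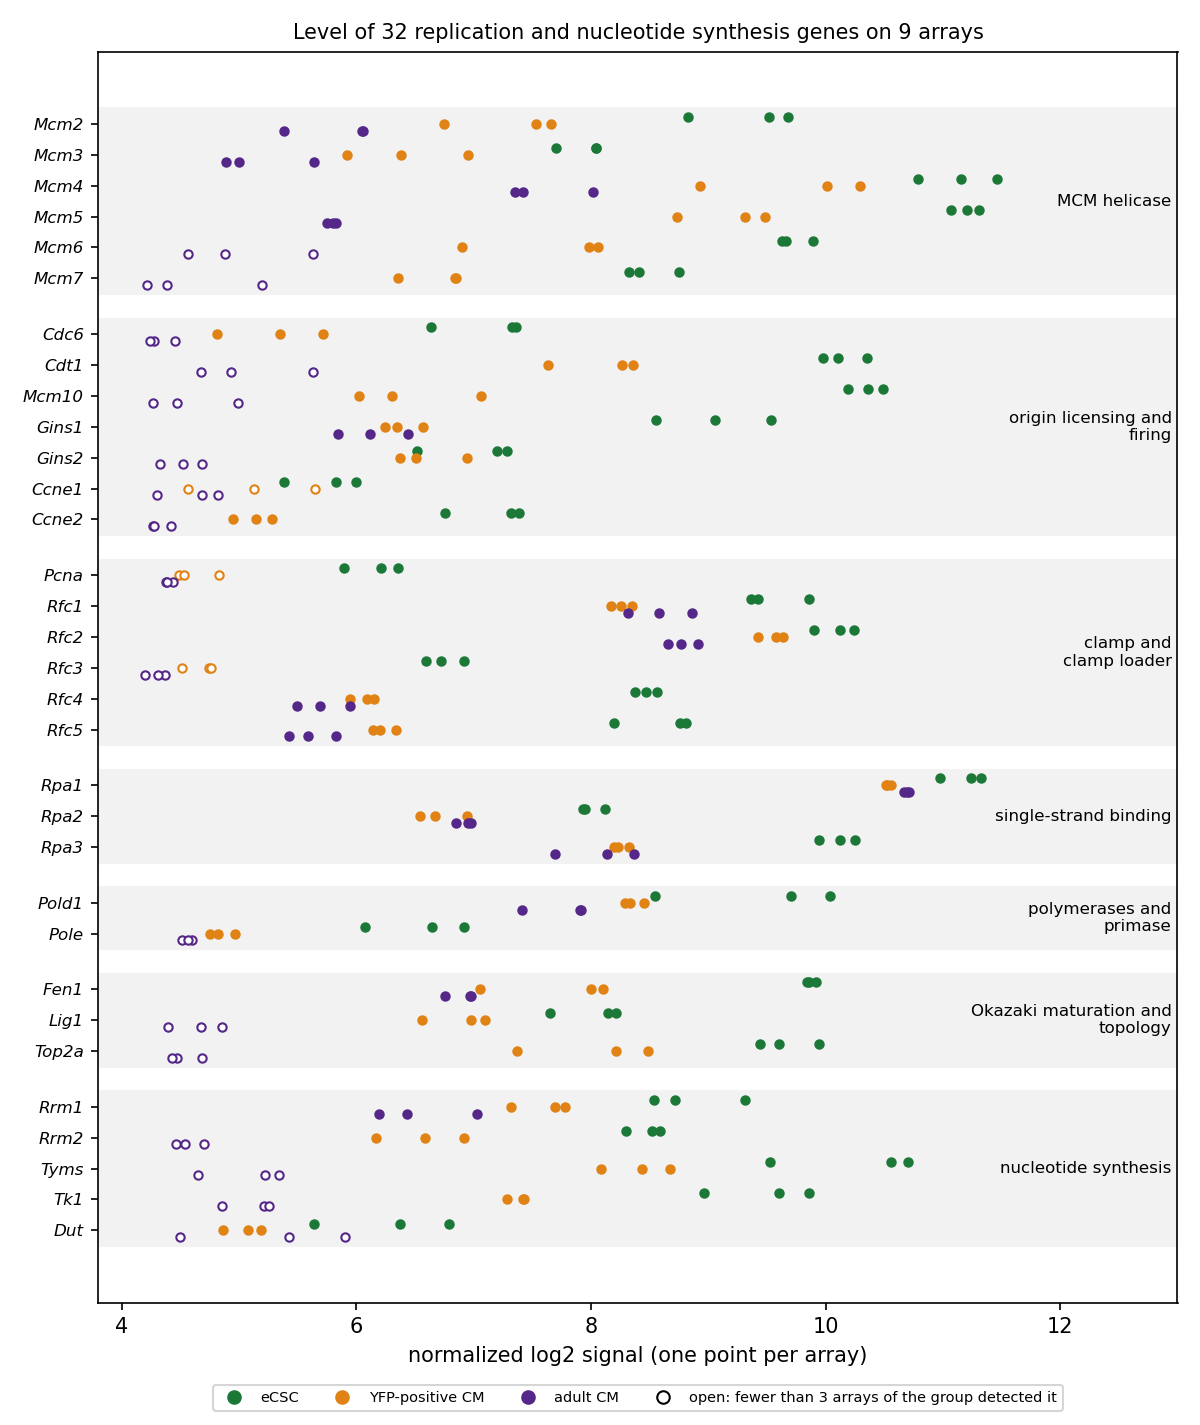
Normalized log2 signal of the 32 genes (rows, grouped by role) on each of the 9 arrays, with 1 point per array: green for eCSCs, orange for YFP-positive and purple for adult cardiomyocytes. Open points mark groups in which fewer than 3 arrays detected the gene. The orange points of the MCM genes lie between the others, while those of the RPA genes lie near the purple ones.

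The MCM2 to MCM7 proteins form the ring-shaped helicase that opens the double helix, and all 6 of their genes were higher in YFP-positive than in adult cells and lower than in eCSCs. The summed MCM signal was 6732, 7402 and 6143 in eCSCs, 2661, 1282 and 2315 in YFP-positive cells and 472, 362 and 392 in adult cells. The 3 groups did not overlap, and YFP-positive replicate 2 lay lowest of its group. Mcm5 was at 11.07, 11.20 and 11.30 in eCSCs, 9.48, 8.73 and 9.31 in YFP-positive cells and 5.80, 5.82 and 5.75 in adult cells. Its level in YFP-positive cells was 10.4-fold that of adult cells (log2 difference 3.38, SE 0.20, limma adjusted p = 1.4e-08) and 4.05-fold below that of eCSCs (log2 difference -2.02, SE 0.20, adjusted p = 3.94e-07). Adult cells were 42.3-fold below eCSCs for this gene (log2 difference -5.40, adjusted p = 6.94e-12).

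Mcm6 was at 9.63, 9.89 and 9.66 in eCSCs, 7.98, 6.90 and 8.06 in YFP-positive cells and 4.56, 4.88 and 5.63 in adult cells, where 2 of 3 arrays detected it. YFP-positive cells exceeded adult cells by 2.62 (SE 0.30, adjusted p = 1.16e-05) and were lower than eCSCs (log2 difference -2.08, adjusted p = 2.64e-05). Every YFP-positive array lay above every adult array and below every eCSC array. Mcm4 was at 11.15, 11.46 and 10.79, then 10.29, 8.93 and 10.01, then 7.35 to 8.02 in the same order of groups, and the step from adult to YFP-positive cells (2.14, adjusted p = 7.61e-05) stood beside one of -1.39 from eCSCs to YFP-positive cells (adjusted p = 0.000969). For Mcm7 the levels were 8.32 to 8.75, 6.35 to 6.85 and 4.21 to 5.19, with 1 adult array detecting it, and YFP-positive cells were 2.08 above adult cells (adjusted p = 1.33e-05). Mcm2 (1.48, adjusted p = 0.000702) and Mcm3 (1.24, adjusted p = 0.00139) had the smallest differences of the 6 between the heart-derived groups. Neither overlapped between any pair of groups, with Mcm2 at 9.68, 9.51 and 8.83, then 7.66, 6.75 and 7.53, then 6.06, 5.38 and 6.05.

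Promoters of the MCM genes are shown because these genes moved together and because E2F proteins, which act on such promoters, are their known regulators. RefSeq promoters on GRCm38.p6, from 250 bases before to 50 bases after the start of a transcript, were matched for 28 of the 34 genes, as 32 promoters. Mcm4, Gins1, Gins2, Ccne2, Rfc2 and Pole have no entry there. The letters searched for E2F were TTTCCCGC, TTTCGCGC, TTTGCCGC and TTTGGCGC on both strands, and they are in capitals below, where overlapping matches run together.
Mcm3, chr1:20820263-20820562, minus strand: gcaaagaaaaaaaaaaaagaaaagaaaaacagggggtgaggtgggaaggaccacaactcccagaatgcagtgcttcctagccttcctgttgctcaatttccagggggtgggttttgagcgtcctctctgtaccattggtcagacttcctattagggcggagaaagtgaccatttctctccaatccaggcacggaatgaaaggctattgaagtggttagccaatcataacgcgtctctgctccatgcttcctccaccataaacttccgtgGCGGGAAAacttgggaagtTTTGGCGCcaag
Mcm5, chr8:75109259-75109558, plus strand: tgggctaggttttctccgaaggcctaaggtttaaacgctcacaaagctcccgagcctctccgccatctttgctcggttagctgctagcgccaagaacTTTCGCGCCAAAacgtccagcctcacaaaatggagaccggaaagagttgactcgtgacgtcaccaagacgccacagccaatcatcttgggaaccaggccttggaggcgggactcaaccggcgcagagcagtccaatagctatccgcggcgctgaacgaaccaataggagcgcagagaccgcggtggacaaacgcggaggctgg
Mcm6, chr1:128359656-128359955, minus strand: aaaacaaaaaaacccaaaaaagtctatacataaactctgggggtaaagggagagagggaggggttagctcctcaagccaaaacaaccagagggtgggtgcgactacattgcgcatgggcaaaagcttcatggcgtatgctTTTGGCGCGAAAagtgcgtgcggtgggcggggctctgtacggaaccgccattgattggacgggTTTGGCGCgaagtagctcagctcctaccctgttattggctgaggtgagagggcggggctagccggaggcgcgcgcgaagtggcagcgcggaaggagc
Mcm7, chr5:138171834-138172133, minus strand: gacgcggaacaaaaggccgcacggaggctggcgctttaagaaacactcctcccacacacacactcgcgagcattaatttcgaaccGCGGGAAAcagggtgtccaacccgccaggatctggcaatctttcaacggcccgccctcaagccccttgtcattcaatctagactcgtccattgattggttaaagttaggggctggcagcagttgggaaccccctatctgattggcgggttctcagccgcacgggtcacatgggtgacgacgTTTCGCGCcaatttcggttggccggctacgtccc
Mcm5 holds an overlapping pair of matches between positions -153 and -142 from the start, Mcm6 holds an overlapping pair between -110 and -99 and a further match from -47 to -40, and Mcm3 and Mcm7 hold 2 each. The Mcm2 promoter and the other Mcm7 promoter hold none. Over all 32 promoters, 10 held such letters (31.25%), against 744 of 32851 RefSeq promoters (2.265%). By gene, they stood in 7 of 16 genes that were higher in YFP-positive than in adult cells and in 2 of 10 that were not called. Over all RefSeq genes they stood in 704 of 27025 (2.605%). The difference between called and uncalled genes was not tested. A match of letters is not a binding site, and these arrays did not measure binding.

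The licensing and firing genes were less uniform, with 5 of 7 higher in YFP-positive than in adult cells. Cdt1, which helps to load the MCM ring, was at 9.97, 10.11 and 10.36 in eCSCs, 8.26, 7.63 and 8.36 in YFP-positive cells and 5.63, 4.67 and 4.93 in adult cells. That is 8.03-fold higher in YFP-positive than in adult cells (log2 difference 3.01, SE 0.25, adjusted p = 5.24e-07) and 4.18-fold lower than in eCSCs (adjusted p = 4.51e-06), with no overlap between groups. Cdt1 was detected on 2 of 3 adult arrays. Mcm10, which helps to activate the loaded helicase, had the largest measured difference between adult cells and eCSCs of the 32 (-5.77, adjusted p = 5.89e-11). It was at 10.37, 10.49 and 10.19 in eCSCs, 7.06, 6.02 and 6.31 in YFP-positive cells and 4.99, 4.27 and 4.47 in adult cells. In adult cells 1 of 3 arrays detected it. Its level in YFP-positive cells was 14.8-fold below eCSCs (log2 difference -3.88, adjusted p = 6.07e-09) and 3.70-fold above adult cells (log2 difference 1.89, adjusted p = 4.47e-05). Cdc6, the other loading factor, was at 7.33, 7.36 and 6.63 in eCSCs and 5.72, 4.81 and 5.35 in YFP-positive cells and was undetected in all adult samples, so that it was at least 1.35-fold higher in YFP-positive than in adult cells (adjusted p = 0.00445) and at least 4.74-fold higher in eCSCs than in adult cells (adjusted p = 9.43e-08).

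Gins2 and Gins1 encode subunits of the same GINS complex and behaved differently. Gins2 was at 7.28, 7.20 and 6.52 in eCSCs, 6.51, 6.37 and 6.95 in YFP-positive cells and 4.69, 4.52 and 4.33 in adult cells, where no array detected it. YFP-positive cells overlapped eCSCs (log2 difference -0.39, 95% interval -0.87 to 0.09, adjusted p = 0.129) and were at least 3.36-fold above adult cells (adjusted p = 5.49e-06). It was the single gene of the 32 that was not called lower in YFP-positive cells than in eCSCs, and it was called lower with the mean of its detected probes (-0.61, adjusted p = 0.0319), with median scaling (-0.81, adjusted p = 0.0164), without normalization (adjusted p = 0.0187), with array weights (adjusted p = 0.0393) and without eCSC replicate 3 (adjusted p = 0.0151). Gins1 was at 9.06, 9.53 and 8.55 in eCSCs, 6.57, 6.24 and 6.34 in YFP-positive cells and 5.85, 6.44 and 6.12 in adult cells. Here the heart-derived groups overlapped (log2 difference 0.25, 95% interval -0.26 to 0.76, adjusted p = 0.405), and both lay below every eCSC array.

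Cyclins E1 and E2 activate CDK2 at the start of S phase. Ccne2 was at 6.75 to 7.39 in eCSCs and 4.95 to 5.28 in YFP-positive cells and undetected in adult cells, which made it at least 1.20-fold higher in YFP-positive than in adult cells (adjusted p = 0.00342), a call that was lost without background correction (0.27, adjusted p = 0.0566). Ccne1 was at 6.00, 5.39 and 5.83 in eCSCs, 5.65, 4.57 and 5.13 in YFP-positive cells and 4.69, 4.30 and 4.82 in adult cells, where it was undetected. Because it was kept only through the eCSC arrays, its difference from eCSCs is a description (log2 difference -0.62, adjusted p = 0.0417, close to the threshold). That adjusted p was 0.121 without the filter on dim probes and 0.211 without YFP-positive replicate 2. It was 0.108 without background correction, 0.0676 with median scaling, 0.0684 without normalization and 0.0980 in the series matrix. Without eCSC replicate 1, eCSC replicate 3 or YFP-positive replicate 3 it was 0.153, 0.105 and 0.0788. The difference of Ccne1 between YFP-positive and adult cells was not called (0.51, 95% interval -0.04 to 1.07, adjusted p = 0.112) but was called without YFP-positive replicate 2 (0.79, adjusted p = 0.0153). YFP-positive replicate 2 was the lowest of its group.

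The clamp and its loader showed smaller differences between the heart-derived groups, with 2 of 6 genes called. Pcna, the clamp that holds polymerases on DNA, was at 5.90, 6.36 and 6.21 in eCSCs, 4.48, 4.53 and 4.83 in YFP-positive cells and 4.44, 4.38 and 4.38 in adult cells. It was detected on 1 YFP-positive array and on no adult array, and the difference between those groups was not called (0.22, 95% interval -0.16 to 0.59, adjusted p = 0.325), while eCSCs, through which it was kept, were 2.91-fold above YFP-positive cells and at least 2.45-fold above adult cells. Rfc2, a subunit of the clamp loader, was higher in YFP-positive cells (9.63, 9.57 and 9.42) than in adult cells (8.77, 8.66 and 8.91) by 0.76 (SE 0.17, adjusted p = 0.0018), without overlap.

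Rfc5, another loader subunit, was at 6.14, 6.20 and 6.34 in YFP-positive cells and 5.43, 5.59 and 5.82 in adult cells (0.61, adjusted p = 0.0172). That call was lost without YFP-positive replicate 3 (adjusted p = 0.0625), without adult replicate 1 (adjusted p = 0.0662) and with the mean of its detected probes (adjusted p = 0.0851). It was also lost without background correction (0.25, adjusted p = 0.125) and in the series matrix (0.30, adjusted p = 0.0532). Rfc4 (0.35, 95% interval -0.01 to 0.72, adjusted p = 0.0976) and Rfc3 (0.38, 95% interval 0.03 to 0.73, adjusted p = 0.0677) were not called. Both were lower than in eCSCs (-2.41 and -2.07), through which alone Rfc3 was kept. Rfc4 was called with median scaling (0.75, adjusted p = 0.0312), without normalization (adjusted p = 0.0397) and without adult replicate 1 (adjusted p = 0.0486). Rfc3 was called without the filter on dim probes (adjusted p = 0.0376), with the mean of detected probes (adjusted p = 0.0491), with array weights (adjusted p = 0.0274) and without YFP-positive replicate 2 (adjusted p = 0.0392). Rfc1, the large subunit, was at 9.37, 9.86 and 9.42 in eCSCs, 8.25, 8.17 and 8.35 in YFP-positive cells and 8.31, 8.58 and 8.86 in adult cells. Its heart-derived groups overlapped (log2 difference -0.33, 95% interval -0.74 to 0.08, adjusted p = 0.171), and both were lower than eCSCs (-1.29 and -0.97). Without normalization the log2 difference between the heart-derived groups was 0.0209 (adjusted p = 0.969).

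RPA, the protein that coats single-stranded DNA in replication and in repair, had none of its 3 genes called between YFP-positive and adult cells. Summed, its signal was 3915, 3928 and 3245 in eCSCs, 1895, 1892 and 1882 in YFP-positive cells and 2128, 2033 and 1976 in adult cells. Rpa1, the large subunit, was at 11.24, 11.32 and 10.98, then 10.52, 10.56 and 10.51, then 10.71, 10.67 and 10.69. YFP-positive arrays lay just below the adult ones (log2 difference -0.16, 95% interval -0.50 to 0.18, adjusted p = 0.426), and both groups were lower than eCSCs (-0.65, adjusted p = 0.00198, and -0.49, adjusted p = 0.0116). Rpa2 differed by -0.21 between the heart-derived groups (95% interval -0.56 to 0.15, with the sign turned under median scaling, 0.23) and Rpa3 by 0.19 (95% interval -0.22 to 0.59). Against eCSCs their log2 differences were -1.28 and -1.86 in YFP-positive cells and -1.08 and -2.04 in adult cells, all called.

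Pold1, the catalytic subunit of polymerase delta, was at 9.70, 10.04 and 8.54 in eCSCs, 8.45, 8.34 and 8.29 in YFP-positive cells and 7.41, 7.92 and 7.91 in adult cells. The groups did not overlap, yet the difference between YFP-positive and adult cells was not called (0.61, 95% interval -0.03 to 1.25, adjusted p = 0.103). It was called without eCSC replicate 3 (adjusted p = 0.0143), with median scaling (0.90, adjusted p = 0.0267) and without normalization (0.97, adjusted p = 0.0250). Pole, the catalytic subunit of polymerase epsilon, was at 6.64, 6.92 and 6.07 in eCSCs and 4.82, 4.76 and 4.96 in YFP-positive cells and undetected in adult cells. It was 3.24-fold lower in YFP-positive cells than in eCSCs (adjusted p = 3.42e-06) and was not called between the heart-derived groups (0.29, 95% interval -0.14 to 0.72).

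**Figure D2:**
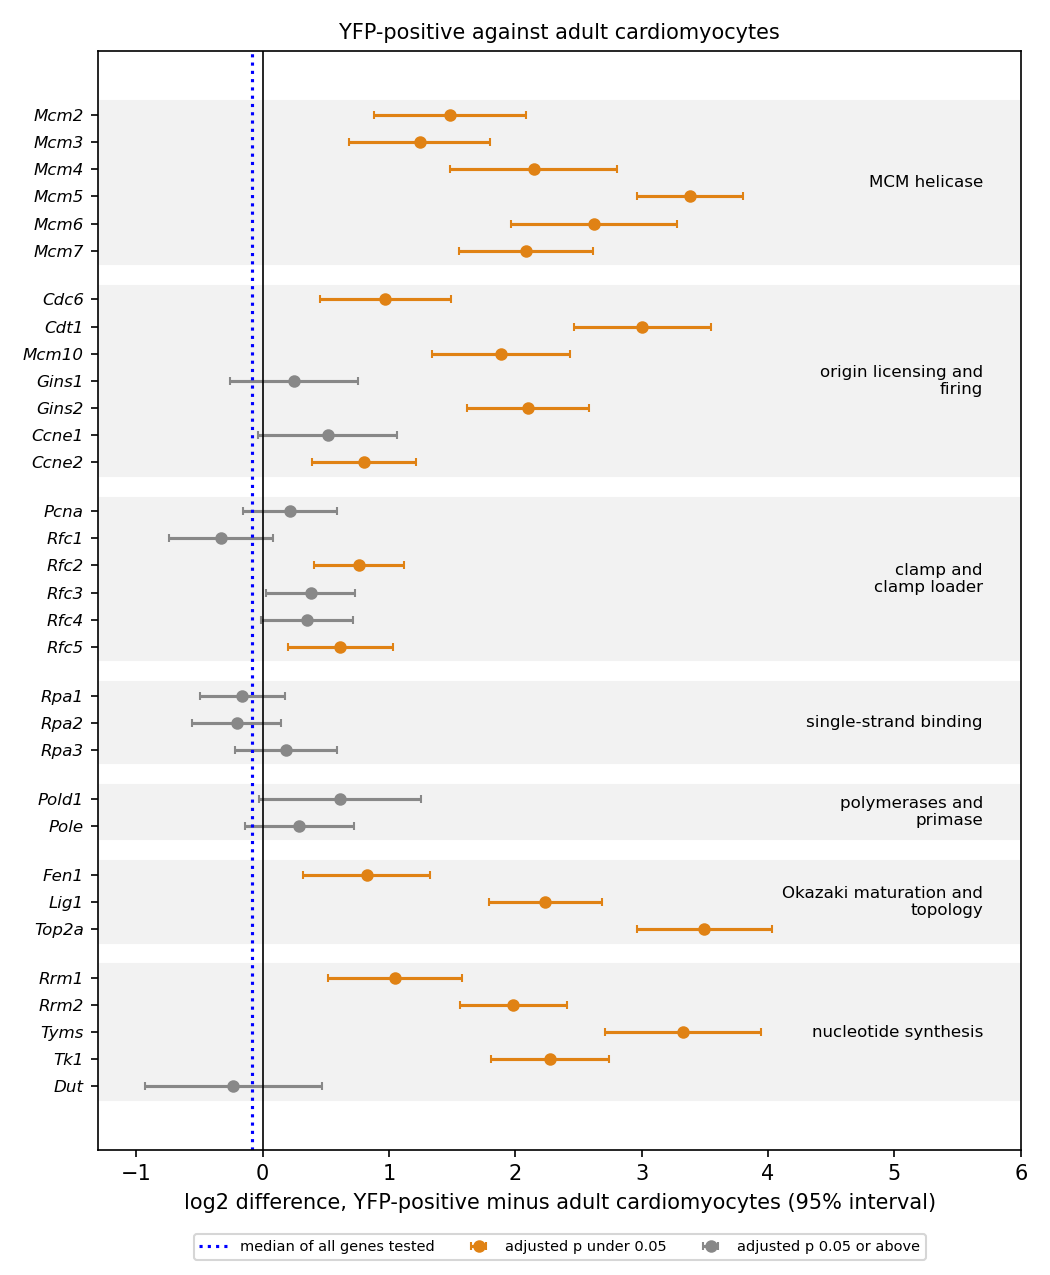
Log2 difference between YFP-positive and adult cardiomyocytes for the 32 genes (points) with 95% intervals from limma (bars), orange where the adjusted p was under 0.05 and grey otherwise, with the median of all genes as a dotted line at -0.08. The 6 MCM genes lie between 1.24 and 3.38, and the 3 RPA genes between -0.21 and 0.19.

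The genes that finish lagging-strand pieces and untangle DNA were all higher in YFP-positive than in adult cells, 3 of 3. Top2a, the topoisomerase that separates replicated strands and is used as a marker of cycling cells, was at 9.94, 9.61 and 9.44 in eCSCs, 8.48, 7.37 and 8.21 in YFP-positive cells and 4.47, 4.43 and 4.69 in adult cells, where no array detected it. It was at least 8.94-fold higher in YFP-positive than in adult cells (adjusted p = 1.03e-07), at least 27.9-fold higher in eCSCs than in adult cells (adjusted p = 1.61e-10) and 3.12-fold lower in YFP-positive cells than in eCSCs (adjusted p = 3.73e-05). Lig1, the ligase that seals lagging-strand pieces, was at 8.14, 8.21 and 7.65 in eCSCs and 7.10, 6.56 and 6.98 in YFP-positive cells and was undetected in adult cells (at least 4.05-fold between the heart-derived groups, adjusted p = 1.54e-06). Fen1, the nuclease that trims their ends, was at 9.84, 9.92 and 9.86, then 7.06 to 8.11 with replicate 2 the lowest, then 6.97, 6.97 and 6.75. Its margin over adult cells (0.82, adjusted p = 0.00989) was small on YFP-positive replicate 2 and was not called without YFP-positive replicate 3 (0.63, adjusted p = 0.057).

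The Top2a promoter is shown because it holds other cell cycle letters many times. Like the Mcm2 promoter, it has none of the E2F letters, and its capitals mark CCAAT, which the NF-Y factor reads, and the letters TTTGAA or TTCGAA of the cell cycle homology region, each on both strands.
Top2a, chr11:99024140-99024439, minus strand: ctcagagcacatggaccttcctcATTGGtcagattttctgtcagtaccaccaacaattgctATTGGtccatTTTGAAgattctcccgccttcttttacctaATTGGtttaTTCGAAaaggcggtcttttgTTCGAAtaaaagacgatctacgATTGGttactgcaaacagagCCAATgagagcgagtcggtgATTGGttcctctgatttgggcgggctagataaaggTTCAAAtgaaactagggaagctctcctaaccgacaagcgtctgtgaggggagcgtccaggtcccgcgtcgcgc
It holds CCAAT 6 times, 5 of them on the reverse strand, and the cell cycle homology letters 4 times. The MCM promoters hold CCAAT as well, 3 times in Mcm3, Mcm5 and the Mcm7 promoter printed above, 2 times in Mcm6 and 1 time in Mcm2, and the homology letters stand 1 time in Mcm2 and in that Mcm7 promoter. Over all 32 promoters, CCAAT stood in 18 (56.25%, against 37.408% of all RefSeq promoters) and the cell cycle homology letters in 5 (15.625%, against 19.226%).

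Of the 5 genes of deoxynucleotide synthesis, 4 were higher in YFP-positive than in adult cells, and all 5 were lower in both than in eCSCs. Tyms, which makes thymidylate, was at 10.55, 10.70 and 9.52 in eCSCs, 8.68, 8.09 and 8.44 in YFP-positive cells and 5.22, 5.34 and 4.65 in adult cells. That is 10.1-fold higher in YFP-positive than in adult cells (log2 difference 3.33, SE 0.29, adjusted p = 6.91e-07), without overlap. Tyms was detected on 2 of 3 adult arrays. Tk1, the cytosolic thymidine kinase of cycling cells, was at 9.86, 9.60 and 8.97, then 7.29, 7.42 and 7.43, then 5.21, 5.25 and 4.86. Of the adult arrays, 2 of 3 detected it. The YFP-positive arrays were close to each other and 4.83-fold above the adult mean (adjusted p = 1.86e-06).

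Rrm1 and Rrm2 encode the subunits of ribonucleotide reductase. Rrm2, the subunit made in S phase, was at 8.59, 8.30 and 8.52 in eCSCs, 6.58, 6.16 and 6.91 in YFP-positive cells and undetected in adult cells (4.54, 4.46 and 4.70). It was at least 3.23-fold higher in YFP-positive than in adult cells (adjusted p = 2.81e-06) and at least 12.2-fold higher in eCSCs than in adult cells (adjusted p = 2.53e-10). Rrm1 was at 8.72, 8.54 and 9.31, then 7.78, 7.32 and 7.69, then 7.03, 6.43 and 6.19 (YFP-positive above adult by 1.05, adjusted p = 0.00317). Dut, which removes dUTP, was at 6.79, 6.37 and 5.64 in eCSCs, 5.08, 5.19 and 4.87 in YFP-positive cells and 5.90, 5.43 and 4.50 in adult cells. Among the adult arrays 2 of 3 detected it. Its YFP-positive and adult levels overlapped (log2 difference -0.23, 95% interval -0.93 to 0.47, adjusted p = 0.583). With median scaling that log2 difference was 0.0449 (adjusted p = 0.93). The call for Dut between adult cells and eCSCs (-0.99, adjusted p = 0.0128) was lost without eCSC replicate 1 (adjusted p = 0.0773) or without adult replicate 3 (adjusted p = 0.0771).

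The brightest probe stood for each gene, and 16 of the genes had more than 1 probe that passed the filter, none of them with probes called in opposite directions. Dimmer probes often showed little between YFP-positive and adult cells. A further Tk1 probe, detected on 2 arrays of each of these groups, differed by 0.0673 (adjusted p = 0.873 among all probes). Mcm4, Mcm10, Rfc5, Lig1, Rrm2 and Tyms, all called by their brightest probe, also had a further probe that was not called there, undetected on all adult arrays. With the mean of the probes that passed the filter, 20 of the 32 genes were called higher, with Rfc3 gained and Rfc5 lost.

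The distance of YFP-positive cells from adult cells, as a share of the log2 distance from adult cells to eCSCs, overlapped between some of the roles. It did not overlap between the MCM genes (0.42 to 0.63), the polymerases (0.15 to 0.36) and RPA (-0.33 to 0.09). Its median was 0.67 for Fen1, Lig1 and Top2a, 0.55 for the MCM genes, 0.51 for nucleotide synthesis, 0.35 for licensing and firing, 0.25 for the polymerases, 0.14 for the clamp and its loader, and -0.19 for RPA, where a negative value means below adult cells. Within a role, single genes ran from 0.09 (Gins1) to 0.84 (Gins2) in licensing and firing, from -0.34 (Rfc1) to 0.58 (Rfc2) in the clamp and its loader, and from -0.23 (Dut) to 0.64 (Tyms) in nucleotide synthesis. The differences between roles were not tested, and for the 10 genes undetected on all adult arrays the share depends on the background level there.

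YFP-positive replicate 2 was the lowest of its group for 24 of the 32 genes, as it was for 35.4% of all genes. It also had the lowest summed leukocyte, fibroblast and mast cell signals of its group, while its endothelial and cardiomyocyte sums lay between those of the other replicates. Its erythroid sum (30989, against 29082 and 24477) and its smooth muscle and pericyte sum (2490, against 1925 and 2322) were the highest of the group. In its group it detected the fewest probes (16802, against 19048 and 19002) and had the lowest median raw signal (93.9, against 101.2 and 102.7). The part of any of these in its low levels was not tested. Summed over Fen1, Lig1 and Top2a, the signal was 750, 393 and 699 in YFP-positive cells and 162 to 173 in adult cells. Without that replicate, 22 of the 32 genes were called higher in YFP-positive than in adult cells, with a median of 1.17, and 30 were called lower than in eCSCs.

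**Figure D3:**
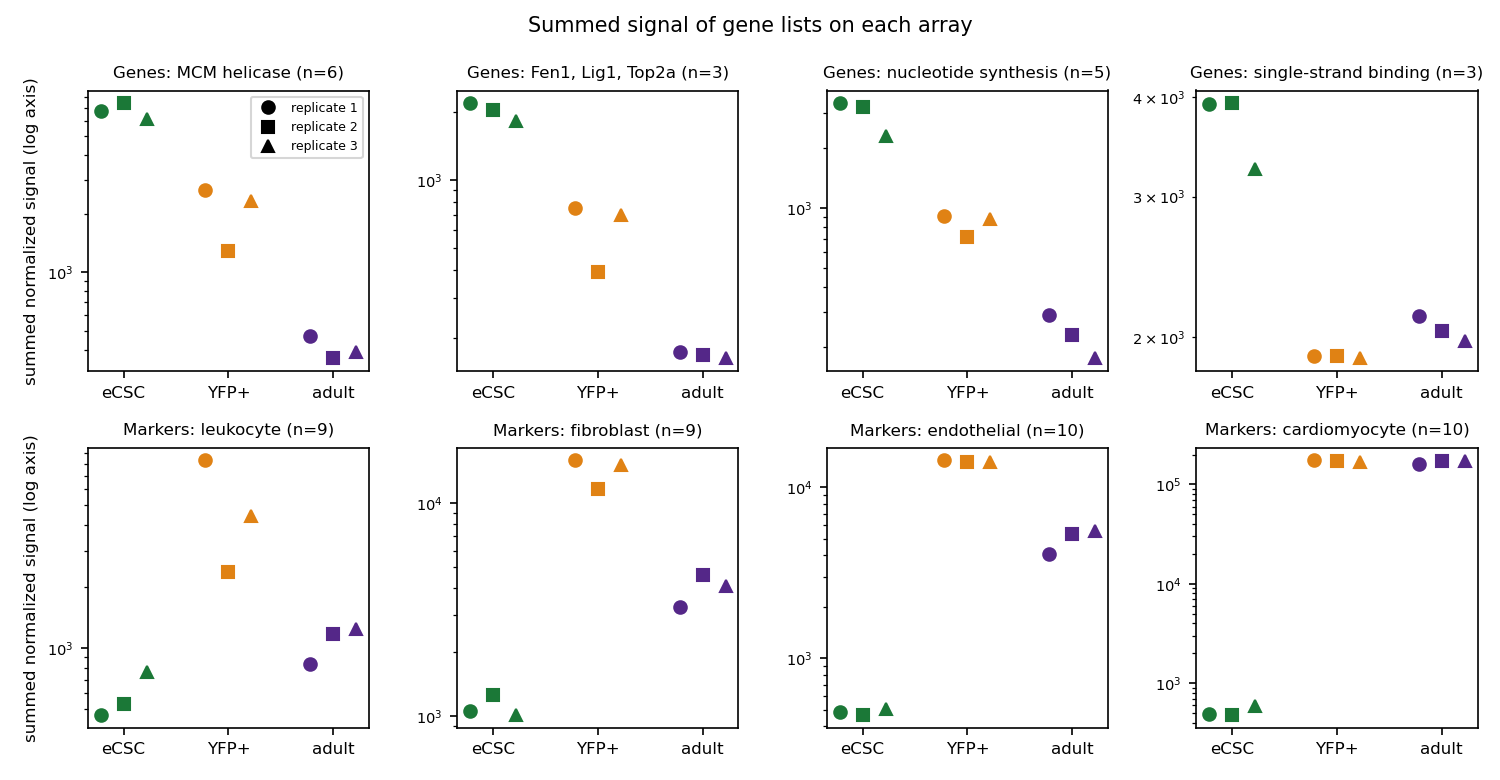
Summed normalized signal (log axes, with a different range in each panel) on each array for 4 groups of replication genes (top) and 4 marker lists (bottom); circles, squares and triangles are replicates 1, 2 and 3. YFP-positive replicate 2 is lowest of its group for the MCM genes (1282 against 2315 and 2661) and for the leukocyte markers (2360 against 4426 and 8325).

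A wider list of 90 genes that act beside these, from origin recognition to purine synthesis, gave 73 that were kept. In YFP-positive cells 58 of them were lower than in eCSCs, 3 higher and 12 not called (median -1.23), and in adult cells 61 were lower, 5 higher and 7 not called (median -1.58). Over all genes, 38.6% and 39.4% were called lower than in eCSCs and 34.4% and 35.8% higher, with medians of -0.10 and -0.05. Mthfd2, the mitochondrial folate enzyme of proliferating cells, was at 12.46, 12.55 and 12.31 in eCSCs, 8.48, 7.85 and 8.64 in YFP-positive cells and 6.61, 6.43 and 6.52 in adult cells, with log2 differences from eCSCs of -4.12 in YFP-positive cells (adjusted p = 2.45e-10) and -5.92 in adult cells (adjusted p = 3.63e-12). Umps, which completes the making of UMP, differed by -3.46 and -3.82, and Atic, which completes the making of IMP, by -3.21 and -2.39.

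The genes that were higher than in eCSCs included Adssl1, the muscle form of adenylosuccinate synthase, which works in the purine nucleotide cycle. It was at 7.23, 7.29 and 7.22 in eCSCs, 11.59, 11.70 and 11.65 in YFP-positive cells and 12.11, 12.44 and 12.34 in adult cells. Adss, the form found in most tissues, went the other way, with 9.90, 9.55 and 9.68, then 7.52, 6.49 and 7.18, then 4.96, 5.22 and 5.44, and YFP-positive cells lay between the other groups for both forms. Rb1, the retinoblastoma protein that restrains E2F, was higher in YFP-positive (1.31) and adult cells (1.61) than in eCSCs, and Cmpk1, a pyrimidine nucleotide kinase, was higher in YFP-positive cells (0.55). Adult cells were also higher for Dguok, the mitochondrial deoxyguanosine kinase (1.25), Orc3 of the origin recognition complex (1.15) and the histone chaperone gene Asf1a (0.55).

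Between YFP-positive and adult cells, 34 of the 73 were higher, 11 lower and 28 not called (median 0.36, against 22.8% higher, 27.7% lower and a median of -0.08 over all genes). The higher ones included 6 of 7 genes of chromatin assembly, 7 of 10 of the fork and its checkpoint and 7 of 9 E2F and RB regulators. Among the 52 detected on all 9 arrays, 18 were higher, 11 lower and 23 not called, with a median of 0.04. Over all 6510 genes detected on all 9 arrays, 1249 were higher and 1982 lower, with a median of -0.19. Uhrf1, which helps to copy DNA methylation, was at 9.34, 7.84 and 8.75 in YFP-positive cells and 4.39, 4.49 and 5.15 in adult cells (3.97, adjusted p = 2.77e-07). Chaf1b, of the complex that places new histones, was at least 5.07-fold higher, and Pclaf, a partner of PCNA, at least 5.08-fold higher. Claspin, the checkpoint protein encoded by Clspn, was at least 3.64-fold higher (adjusted p = 1.06e-05). Of the 11 licensing and firing genes, 4 were higher, 1 lower and 6 not called. Polymerase and primase genes had 2 higher and 5 not called of 7. In the licensing group, Dbf4 and Cdc7, the subunits of the kinase that fires origins, were at least 3.53-fold higher and 2.11 higher on the log2 scale.

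E2f1, an activator of S-phase genes, was at 8.96, 9.34 and 9.41 in eCSCs, 7.13, 6.81 and 7.02 in YFP-positive cells and 4.69, 4.85 and 4.22 in adult cells (YFP-positive above adult by 2.40, adjusted p = 4.95e-07). E2f2 was at 8.28, 8.30 and 7.73, then 8.67, 6.21 and 6.91, and undetected in adult cells, with at least 5.29-fold between the heart-derived groups (adjusted p = 8.77e-05). YFP-positive replicate 1 was its highest array, above every eCSC array. Cdk2, the kinase partner of cyclin E, was 1.66 higher in YFP-positive than in adult cells (adjusted p = 1.4e-05) and not called against eCSCs (-0.33, adjusted p = 0.141).

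The metabolic genes were called in both directions. One-carbon genes were lower in YFP-positive than in adult cells for 3 of 4, with Mthfd1 at -0.65 and Shmt1 at -0.64, while Mthfd2 was higher by 1.80. Purine synthesis had 4 lower, 2 higher and 5 not called of 11, among them Atic (-0.82, adjusted p = 0.00157), Adss (1.85, adjusted p = 2.92e-05) and Impdh1, which makes guanine nucleotide precursors (0.83, adjusted p = 0.00147). Deoxynucleotide salvage had 3 higher, 2 lower and 3 not called of 8, with Dctd, the dCMP deaminase, higher by 0.98 and Dguok lower (-1.13). Pyrimidine synthesis had 2 higher (Cmpk1 by 0.90 and Ctps2 by 0.84), 1 lower (Dhodh, -0.81) and 3 not called.

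**Figure D4:**
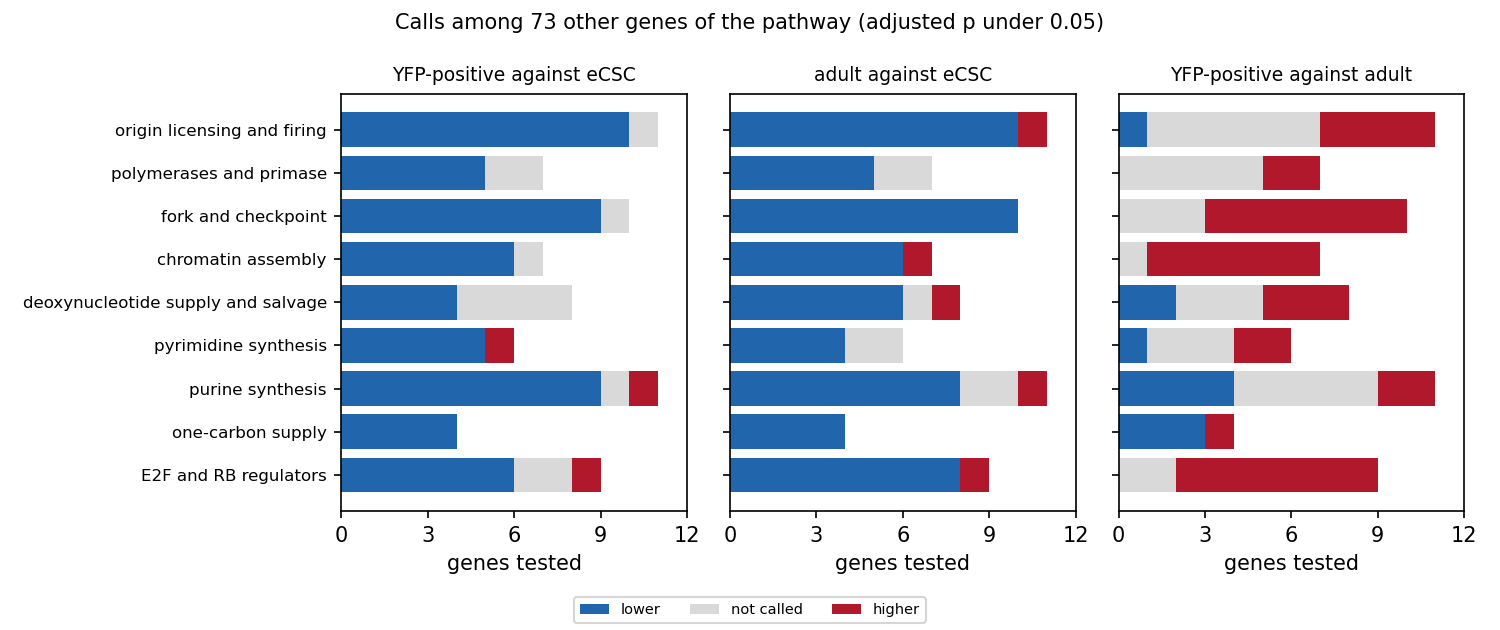
Number of the 73 further genes called lower (blue), not called (grey) or called higher (red) in each comparison, by role, at an adjusted p under 0.05. Against eCSCs most bars are blue, and between YFP-positive and adult cells red prevails for chromatin assembly (6 of 7) and E2F and RB regulators (7 of 9) while one-carbon supply is mostly blue (3 of 4).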

How the data were processed

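The authors deposited, per the file headers, a table of bead-array signal intensity with a detection column for each of 9 samples, and a series matrix of log2 values of the same arrays. Tools listed in the submitters' processing notes are lumi 2.10.0 and R 2.15.3, without a role. The deposited detection fraction rises with signal, so 1 minus it was used as the detection p. The intensities were background-corrected (normexp on detection p, offset 16), quantile normalized and put on the log2 scale with limma 3.58.1 in R 4.3.3. A probe with 1 symbol was kept where every array of a group detected it (p below 0.05), and a gene was represented by its brightest such probe. A mean per group was fitted over 9 arrays (lmFit, eBayes), two-sided, with Benjamini-Hochberg adjustment over 10024 genes. A fold against a group in which no array detected the gene is a bound from the lowest detected signal per array. Symbols and promoters are from RefSeq GRCm38.p6.

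The members and lists were chosen with earlier results of these data known. All members are named. Of the wider list, genes higher than in eCSCs and up to 3 per role with the smallest adjusted p are named. The scripts were tested on simulated data. Same-numbered samples did not deviate together (correlations -0.064 to 0.120), so the replicate number was not used as a block. The alternatives were other background corrections, normalizations, filters, probe rules, the series matrix, array weights, a replicate block and leaving out each sample.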

Additional observations from a re-analysis of the deposited data

How the results depend on the processing

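The counts of 31, 32 and 20 called genes kept their direction under the alternatives run. Among genes detected on all 9 arrays they were 15, 15 and 8, because fewer genes were tested. Leaving out each sample in turn gave 30 to 31, 31 to 32 and 18 to 22. The replicate block gave 31, 32 and 21, with Ccne1 added between YFP-positive and adult cells (adjusted p = 0.0357). Same-numbered samples share only a number.

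Between YFP-positive and adult cells, uncalled differences changed sign for Dut (0.0449 with median scaling, 0.12 without normalization, -0.62 to 0.0819 leaving out each sample), Rpa2 (0.23 with median scaling, 0.31 without normalization, 0.0305 with the mean of detected probes), Rfc1 (0.0209 without normalization) and Rpa3 (-0.000115 to 0.34 leaving out each sample). The cause was not tested. Median scaling moved the median of all genes from -0.10, -0.05 and -0.08 to -0.49, -0.68 and 0.16 in the 3 comparisons, and no normalization to -0.54, -0.80 and 0.24, while the medians of the members became -2.28, -3.52 and 1.11, and -2.34, -3.65 and 1.18. Without background correction they were -1.16, -1.64 and 0.52, and in the series matrix -1.11, -1.65 and 0.51.

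Over all genes, calls lower in YFP-positive than in adult cells went from 2779 to 829 (median scaling) and 479 (no normalization). Calls higher than eCSCs went from 3446 to 2249 in YFP-positive cells (no normalization), and from 3590 to 2157 (median scaling) and 1874 (no normalization) in adult cells. With genes detected on all 9 arrays, higher calls were 1901, 2258 and 1290. Genes undetected in a group have only a bound there.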
